A study of Mus musculus with 20 samples.

Results

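The BCL2 family was followed here as 10 mouse genes: Bcl2, Bcl2l1, Bcl2l2, Mcl1, Bax, Bak1, Bad, Bid, Bcl2l11 and Bok. Members were the probe sets for which the platform annotation gives 1 of these symbols and no other. The rule found 27 of the 22690 probe sets on the array, covering 9 of the 10 genes. It assigned none to Bax, which was therefore not analysed here. Mcl1 had 6 probe sets, Bcl2l11 had 5, Bcl2l1 and Bcl2l2 had 4 each, Bak1, Bad and Bid had 2 each, and Bcl2 and Bok had 1 each.

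The cells were C2C12, a mouse muscle precursor line whose cells fuse into multinucleated myotubes when serum is lowered. Myotubes formed over 96 h were exposed for 2 h to hydrogen peroxide (H2O2), a diffusible oxidant, at 0, 1, 10, 100 or 1000 µM. All 5 groups, the untreated one included, received the 2 h incubation in medium with 0.5% horse serum, and no group carried a genetic change. Each dose had 4 Affymetrix Mouse Genome 430A arrays. All samples come from 1 cell line in culture, and no source names the 4 replicates of a dose as separate cultures. The p-values therefore reflect the spread among these arrays, part of which may be technical.

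Proteins of the BCL2 family decide whether the outer mitochondrial membrane stays closed or lets cytochrome c out, which starts the caspase cascade of apoptosis. Pro-survival members (BCL2, BCL-XL, BCL-W and MCL1) hold the others in check. The effectors BAX and BAK, and in some settings BOK, form pores in the membrane. BH3-only members such as BIM, BID and BAD are the sensors: they occupy the pro-survival proteins, and BIM and BID can also switch on the effectors. Many steps in this pathway act on the proteins, through phosphorylation, cleavage or degradation, and an mRNA array does not measure those.

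Levels are the deposited array signals, on a linear scale with an arbitrary unit. Signals of different probe sets cannot be set against each other, so each is followed across doses only. Testing was limited to probe sets at or above the 40th percentile of an array's signals on at least 4 of the 20 arrays, and that percentile lay between 77.7 and 106.5. Of the 27 member probe sets, 22 were tested. The 5 that were not were a Bcl2l1 probe set (1426050_at, signals 2.7 to 16.3), a pair for Bcl2l2 (1430453_a_at, 12.1 to 98.9, and 1430454_x_at, 6.3 to 64.1) and a pair for Bcl2l11 (1426334_a_at, 5.5 to 72.2, and 1456006_at, 10.1 to 55.8). Differences are on the log2 scale with their standard error (SE). A difference is called a rise or a fall where the adjusted p of limma, a linear model fitted over all tested probe sets, was under 0.05. The 4 comparisons with untreated myotubes share the same 4 untreated arrays, so their results are not independent of each other.

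The 4 arrays titled replicate 1 and the 10 µM array without a number stood apart from the other 15. On the first principal component they scored -42.47 to -27.62, against 6.22 to 16.08 for the rest. Each dose held 1 of these 5 arrays. Of the myotube markers, 10 of 10 had a probe set that passed the filter, while 0 of 5 leukocyte and 0 of 4 adipocyte markers with a probe set did. Markers of cycling undifferentiated cells passed for 5 of 5 and fibroblast markers for 5 of 6, so the cultures also held mRNA of both lists. The summed signal of the cycling markers was 5977.2 to 6541.4 in untreated myotubes, 6606.0 to 7533.9 at 1 µM, 6605.9 to 7020.0 at 10 µM, 5563.7 to 5858.6 at 100 µM and 5812.6 to 6615.4 at 1000 µM. It was thus above the untreated range at the 2 lowest doses and below it at 100 µM. Of the cycling markers, Plk1 was called lower at 100 µM. Mki67 was called lower at 1000 µM, where the sum overlapped with the untreated range. Markers of quiescent reserve cells passed for 4 of 6, with Pax7 and Calcr below the filter level on all arrays, and their sum overlapped with the untreated range of 4161.4 to 5217.9 at every dose, although 1 of them, Spry1, was called lower at 100 and 1000 µM. The summed signal of the myotube markers was 60028.4 to 74003.7 untreated, 75199.3 to 81560.3 at 1 µM and 68472.6 to 94223.4 at 10 µM. It was 68518.4 to 82083.1 at 100 µM and 77959.1 to 82497.3 at 1000 µM. The sum was thus above the untreated range at 1 and 1000 µM. Of these markers only Tnnt3 was called at 1000 µM, where it was higher. The part of these shifts in the results below was not tested, and in bulk RNA fewer cells of a type cannot be told apart from less RNA per cell.

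At 100 µM, 1 of the 22 tested probe sets rose, one for Bcl2l11, and 0 fell, against 1.22% called of all 14379 tested probe sets. At 1000 µM, 2 rose, one each for Mcl1 and Bok, and 0 fell, while 10.9% of all tested probe sets were called. Between 100 and 1000 µM, 1 fell, for Bid, and 0 rose, with 4.35% called of all. At 1 µM limma called 0 of 22 members with 0% called of all, and at 10 µM it called 0 of 22 with 0.00695% called of all. At an unadjusted p under 0.05 the member counts were 2, 1, 4 and 7 at 1, 10, 100 and 1000 µM, and 4 between 100 and 1000 µM. As shares these were 9.09%, 4.55%, 18.2%, 31.8% and 18.2% of the 22, beside 6.68%, 4.99%, 11.2%, 26.2% and 17.8% of all tested probe sets. At 1000 µM and between the top doses the members' shares were thus near those of all. The median difference over the 22 was 0.05 at 100 µM and 0.00 at 1000 µM, beside -0.03 and -0.07 over all tested probe sets. A moderated F-test for any difference among the 5 doses called 1 of 22, the same Bcl2l11 probe set (F = 10.14, adjusted p = 0.00444), against 8.01% of all.

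With arrays 2 to 4 of each dose alone, 0 members were called at 100 µM, against 2.49% of all tested probe sets. At 1000 µM, 2 were then called higher, both for Mcl1, and 1 lower, for Bid (17.6% of all called), and between the top doses 2 were lower, both for Bid (9.05% of all). With the replicate number as a block, 1 member was called at 100 µM (2.8% of all), 3 rose and 1 fell at 1000 µM (19.8% of all) and 2 fell between the top doses (9.67% of all). The F-test with that block called 4 of 22, against 15.8% of all. Median centring, which moved the median of all tested probe sets up by 0.20 at 1000 µM, gave 7 member rises there, 4 for Mcl1, 2 for Bcl2l11 and 1 for Bok, with 16.9% of all called in either direction.

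**Figure D1:**
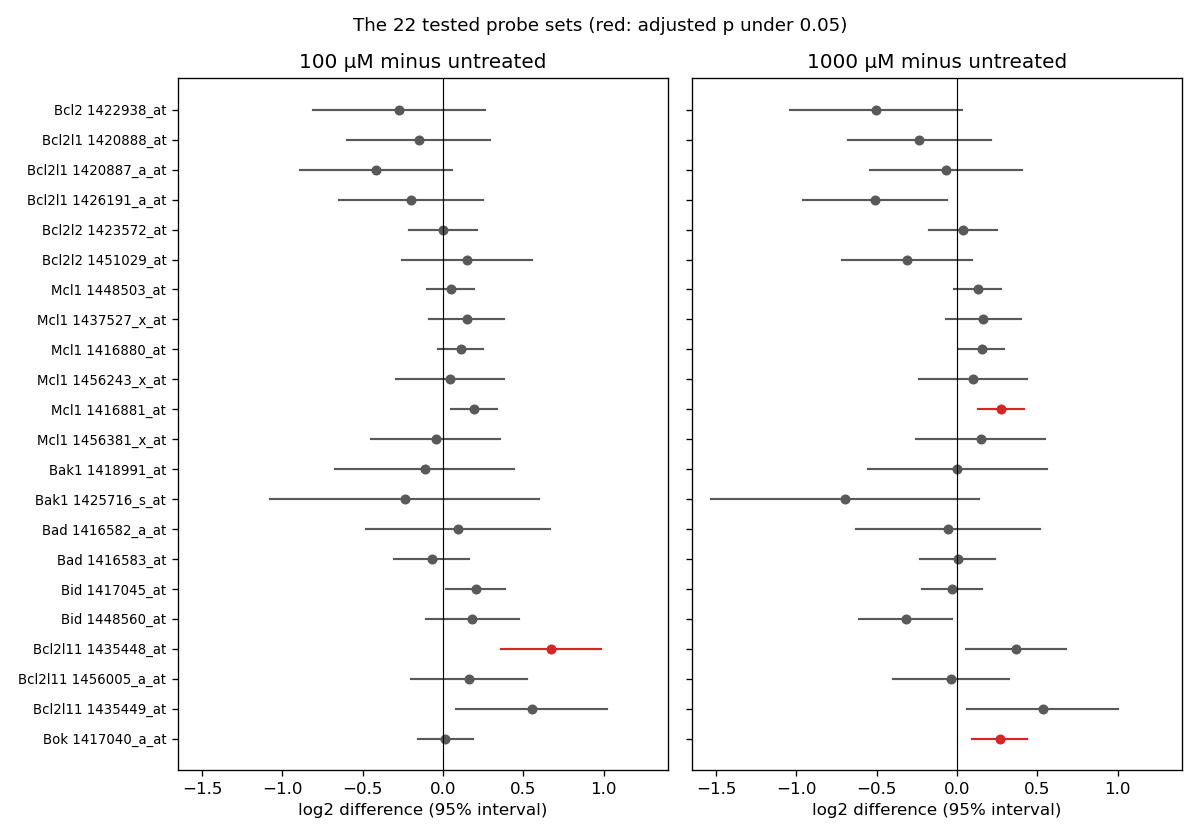
Log2 difference from untreated myotubes with its 95% confidence interval for each of the 22 tested member probe sets, at 100 µM and at 1000 µM H2O2, with pro-survival members at the top; red marks an adjusted p under 0.05. One Bcl2l11 probe set at 100 µM and 1 each of Mcl1 and Bok at 1000 µM are red, and most of the other intervals cross 0.

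Among the pro-survival genes, Mcl1 rose at 1000 µM. Mcl1 encodes a short-lived protein that restrains BAK and binds BIM. Its probe set 1416881_at gave 1381.3, 1430.5, 1446.2 and 1405.2 on the untreated arrays. It gave 1520.7, 1465.2, 1652.2 and 1722.4 at 1 µM and 1513.1, 1684.2, 1581.4 and 1518.4 at 10 µM. All 8 of these low-dose arrays lay above the highest untreated array. At 100 µM the signals were 1600.4, 1514.9, 1721.1 and 1627.4, and at 1000 µM they were 1652.4, 1679.0, 1832.2 and 1683.5. The untreated group overlapped with no other dose, while the 4 treated groups overlapped with one another. At 1000 µM Mcl1 1416881_at rose by 0.27 ± 0.07 (SE, n = 4 arrays a dose), a fold of 1.21 with an adjusted p of 0.0144. Without 1000 µM replicate 3 the adjusted p was 0.0566, and without any 1 of the other 7 arrays of these doses it stayed under 0.05. At lower doses the difference was 0.16 at 1 µM (adjusted p = 0.717), 0.15 at 10 µM (adjusted p = 0.963) and 0.19 at 100 µM (adjusted p = 0.252). The other Mcl1 probe sets did not share this at 1 and 10 µM. Their differences ran from -0.11 to 0.03 at 1 µM, from -0.18 to -0.04 at 10 µM and from -0.05 to 0.15 at 100 µM.

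None of the other 5 Mcl1 probe sets passed at 1000 µM. Mcl1 1448503_at, its brightest, gave 2765.2, 2988.7, 2824.0 and 2823.0 untreated and 3152.0, 3029.7, 3277.3 and 3004.1 at 1000 µM. The groups did not overlap, but the difference of 0.13 ± 0.07 had an adjusted p of 0.252. Mcl1 1416880_at gave 1671.4, 1809.7, 1859.5 and 1871.2 untreated and 1870.8, 2090.1, 2008.7 and 2059.2 at 1000 µM. Those groups met at their edges, with a difference of 0.15 ± 0.07 (adjusted p = 0.145, and 0.0462 with the replicate block). The 3 remaining Mcl1 probe sets carry the suffix x, which the manufacturer gives to probe sets that may also bind other transcripts. Their differences at 1000 µM were 0.16 ± 0.11 for 1437527_x_at, 0.10 ± 0.16 for 1456243_x_at and 0.15 ± 0.19 for 1456381_x_at, none of which passed. All 6 Mcl1 differences at 1000 µM were above 0, and 1 passed.

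Bcl2 itself, the founding pro-survival gene, was dim in these cells. Bcl2 1422938_at gave 194.6, 80.0, 89.6 and 109.7 untreated, 108.4, 110.0, 96.8 and 61.7 at 100 µM, and 95.9, 87.4, 65.2 and 68.7 at 1000 µM. The highest untreated array was replicate 1, and the groups overlapped. The difference at 1000 µM was -0.51 ± 0.26 (interval -1.04 to 0.03, adjusted p = 0.218), and no dose gave a call.

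Bcl2l1 encodes BCL-XL, which holds BAX and BAK. Its brightest probe set, 1420888_at, gave 788.9, 534.3, 511.8 and 541.9 untreated and 622.2, 546.7, 398.6 and 450.6 at 1000 µM. These overlapped, with a difference of -0.23 ± 0.21 (adjusted p = 0.532). Bcl2l1 1420887_a_at differed by -0.42 ± 0.23 at 100 µM (adjusted p = 0.521) and by -0.07 at 1000 µM. Bcl2l1 1426191_a_at, close to the filter level, gave 105.3, 104.7, 103.9 and 91.6 untreated and 71.0, 76.0, 78.3 and 60.3 at 1000 µM. Here the groups were apart, but the difference of -0.51 ± 0.21 had an adjusted p of 0.132. No Bcl2l1 probe set was called at any dose.

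Bcl2l2 encodes BCL-W, a pro-survival relative. Bcl2l2 1423572_at gave 562.7, 699.9, 650.1 and 650.3 untreated and 578.2, 708.7, 663.1 and 676.9 at 1000 µM. Replicate 1 was the lowest in both groups, and the ranges overlapped. The difference was 0.04, with an interval of -0.17 to 0.25. Bcl2l2 1451029_at differed by -0.31 ± 0.19 at 1000 µM (adjusted p = 0.335).

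Of the effectors, Bok rose at 1000 µM. BOK is related to BAX and BAK and sits largely at the endoplasmic reticulum and Golgi. Bok 1417040_a_at gave 900.7, 853.1, 896.2 and 948.5 untreated, 1094.2, 1223.1, 1080.7 and 919.3 at 1 µM, and 940.9, 983.6, 1014.3 and 974.5 at 10 µM. It gave 809.6, 953.5, 906.6 and 971.9 at 100 µM and 1141.8, 1058.1, 1042.2 and 1081.1 at 1000 µM. The 1000 µM arrays were all above the untreated arrays and above the 100 µM arrays, and 3 of the 4 arrays at 1 µM lay within or above the range at 1000 µM. The 100 µM arrays overlapped with the untreated ones. The difference at 1000 µM was 0.26 ± 0.08 (fold 1.20, interval of the log2 difference 0.09 to 0.44, adjusted p = 0.0434). This call was lost without any 1 of the 8 arrays of the 0 and 1000 µM groups (adjusted p from 0.0541 to 0.112), and it was also lost without the filter (0.0601), without the intensity trend (0.0515) and within arrays 2 to 4 (0.0551). The difference was 0.26 ± 0.08 at 1 µM too, where its adjusted p was 0.581, and 0.01 at 100 µM. Between 100 and 1000 µM it was 0.25 (adjusted p = 0.0949).

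Bak1 encodes BAK, a pore-forming effector. Bak1 1418991_at gave 502.2, 808.3, 910.9 and 762.9 untreated, 432.4, 754.6, 808.2 and 777.0 at 100 µM, and 490.2, 904.7, 734.9 and 872.4 at 1000 µM. The array numbered 1 was lowest in each group. The difference at 1000 µM was 0.00, with an interval of -0.55 to 0.56. Bak1 1425716_s_at differed by -0.70 ± 0.40 at 1000 µM (adjusted p = 0.285), where replicate 1 gave 23.8 and the other 3 arrays 130.0, 91.3 and 154.0.

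**Figure D2:**
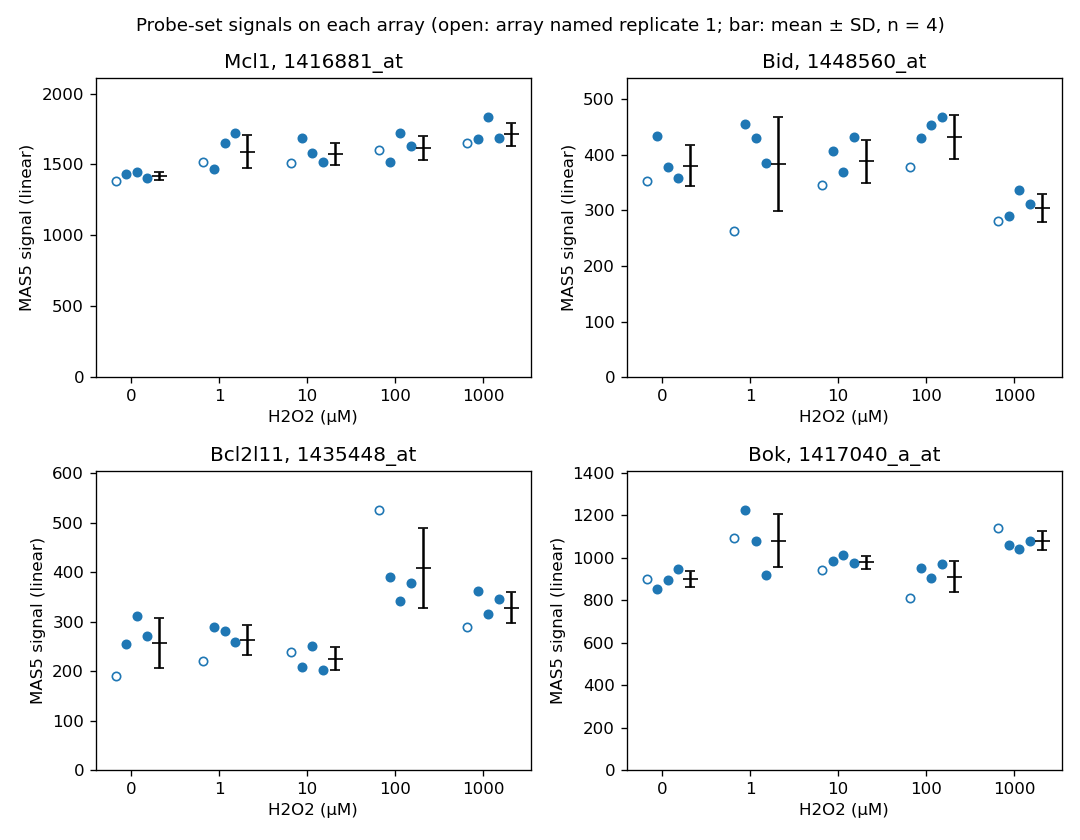
Deposited signal on each of the 20 arrays, by H2O2 dose in µM, for the 4 member probe sets that passed the test in at least 1 comparison (Mcl1 1416881_at, Bok 1417040_a_at, Bcl2l11 1435448_at and Bid 1448560_at); points are arrays (open for arrays named replicate 1) and bars are means ± SD (n = 4). For Mcl1 every treated array lies above the untreated ones, for Bcl2l11 the mean is highest at 100 µM, with 2 arrays at 1000 µM inside the 100 µM range, and for Bid the 1000 µM arrays lie below all others but 1 array at 1 µM.

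Among the BH3-only genes, Bcl2l11 rose at 100 µM. Bcl2l11 encodes BIM, which binds every pro-survival member and can activate BAX and BAK directly. Bcl2l11 1435448_at gave 191.0, 255.8, 311.4 and 271.3 untreated, 221.2, 289.3, 282.1 and 259.0 at 1 µM, and 238.3, 209.0, 250.7 and 203.2 at 10 µM. It gave 525.2, 391.4, 341.0 and 377.7 at 100 µM and 289.7, 361.5, 316.1 and 346.7 at 1000 µM. All 4 arrays at 100 µM were above all 12 at the lower doses, whereas 1 array at 1000 µM lay below the highest untreated array. The rise at 100 µM was 0.67 ± 0.15 (fold 1.59, interval of the log2 difference 0.36 to 0.98, adjusted p = 0.0241). The highest array at 100 µM and the lowest untreated array were both numbered 1. Within arrays 2 to 4 the difference was 0.41 and the adjusted p 0.0606. The call also ended without untreated replicate 1 (0.53, adjusted p = 0.0841), without untreated replicate 2 (0.67, adjusted p = 0.0635), without 100 µM replicate 1 (0.54, adjusted p = 0.113) and without 100 µM replicate 2 (0.68, adjusted p = 0.062). Fitted on the 2 doses alone, the adjusted p was 0.16. At 1000 µM the difference was 0.37 ± 0.15 (adjusted p = 0.12); it passed under quantile normalization (0.54, adjusted p = 0.0395) and median centring (0.57, adjusted p = 0.0131). The difference from 100 to 1000 µM was -0.30 (adjusted p = 0.299).

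A second Bcl2l11 probe set, 1435449_at, gave 55.2, 74.1, 62.6 and 64.7 untreated, 129.8, 76.4, 99.6 and 77.1 at 100 µM, and 110.7, 87.7, 78.1 and 95.7 at 1000 µM. Both treated groups lay above the untreated one, but this probe set passed the filter only through them. It reached the filter level on 2 arrays at 100 µM, on 3 at 1000 µM and on 0 at each lower dose. Its separation is therefore no independent support for the rise. The differences were 0.55 ± 0.23 at 100 µM (adjusted p = 0.339) and 0.53 ± 0.23 at 1000 µM (adjusted p = 0.138), and neither passed. The third, 1456005_a_at, gave 243.2, 230.6, 235.6 and 260.5 untreated and 396.8, 230.7, 229.8 and 256.0 at 100 µM. Only replicate 1 at 100 µM lay above the untreated arrays, and the difference was 0.16.

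Bid encodes a BH3-only protein that caspase-8 cleaves into an active form, linking death receptors to mitochondria. Bid 1448560_at gave 352.9, 433.8, 378.6 and 358.3 untreated, 378.0, 429.7, 453.1 and 467.7 at 100 µM, and 280.2, 289.9, 336.2 and 312.5 at 1000 µM. The 1000 µM arrays were below all arrays of the other groups, except 1 array at 1 µM (263.4). From 100 to 1000 µM Bid 1448560_at fell by 0.50 on the log2 scale (difference -0.50 ± 0.14, fold 0.706, adjusted p = 0.0415). This call remained without 100 µM replicate 1 (adjusted p = 0.0401) and was lost without any 1 of the other 7 arrays of these doses (adjusted p from 0.0533 to 0.123). It was also lost under quantile normalization (-0.40, adjusted p = 0.135), median centring (-0.38, adjusted p = 0.119) and without the filter (-0.50, adjusted p = 0.0609). Against untreated myotubes the difference at 1000 µM was -0.32 ± 0.14 (adjusted p = 0.141, and 0.0488 with the replicate block). Bid 1417045_at gave 985.1, 1108.4, 1145.0 and 1129.0 untreated, 1203.5, 1280.3, 1230.1 and 1301.6 at 100 µM, and 1011.3, 1096.8, 1115.6 and 1047.3 at 1000 µM. Its 100 µM arrays lay above both other groups. The difference at 100 µM was 0.20 ± 0.09 (adjusted p = 0.389), and from 100 to 1000 µM it was -0.23 ± 0.09 (adjusted p = 0.157, and 0.0444 with the replicate block).

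Bad encodes a BH3-only protein that survival kinases keep phosphorylated and away from BCL-XL. Bad 1416583_at gave 415.2, 391.8, 404.3 and 466.5 untreated and 435.4, 412.1, 381.1 and 453.0 at 1000 µM, which overlapped. Its difference was 0.00 with an interval of -0.23 to 0.24. Bad 1416582_a_at differed by -0.06 ± 0.27 at 1000 µM, with signals spread from 292.5 to 687.0 within that dose.

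Over the 22 probe sets the 95% interval of a difference reached 0.35 on either side at the median, from 0.14 to 0.84. Half-widths were smallest for Mcl1 1416880_at and largest for Bak1 1425716_s_at.

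**Figure D3:**
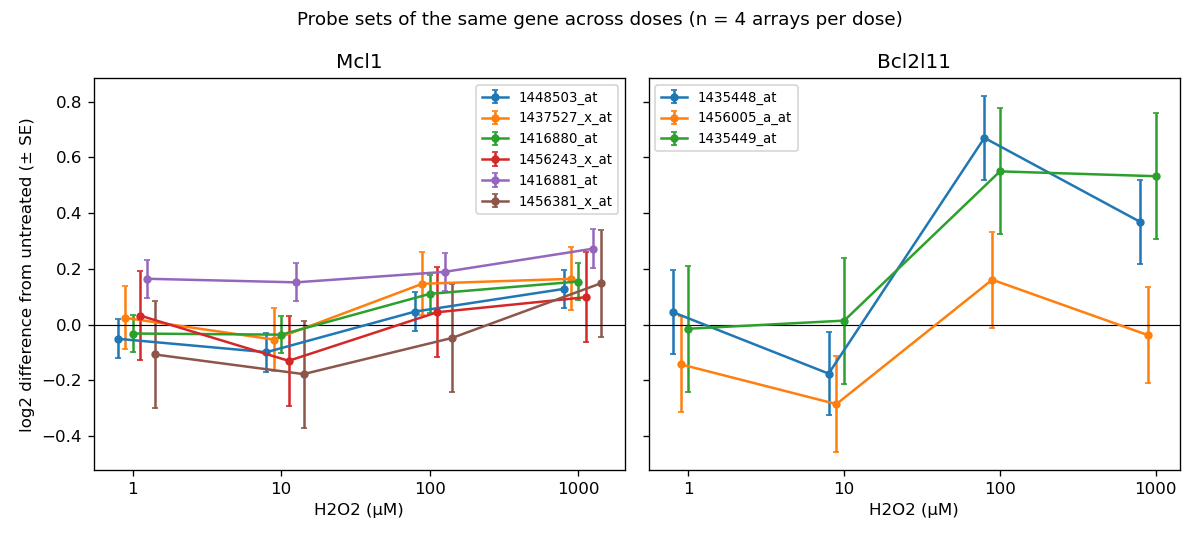
Log2 difference from untreated myotubes at each H2O2 dose in µM, with its SE (n = 4 arrays a dose), for the 6 probe sets of Mcl1 and the 3 tested probe sets of Bcl2l11. The Mcl1 probe sets lie close together at 1000 µM, while Bcl2l11 1456005_a_at lies below the other 2 at 100 and 1000 µM.

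Probe sets of the same member were set against each other by exact two-sided permutation tests over 70 assignments, whose smallest possible p is 0.0286. Of 50 tests on 25 pairs, 4 reached that p. These were Mcl1 1416881_at against 1448503_at at 1000 µM, the Bid pair at 1000 µM, and Bcl2l11 1456005_a_at against 1435448_at at 100 µM and against 1435449_at at 1000 µM. After adjustment over the 50 tests the lowest p was 0.358, and 0 pairs passed 0.05. With that smallest p, a single pair at it could not pass after adjustment over 50 tests. These tests therefore cannot show that the probe sets of a member change alike.

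The promoters of the 3 members that were called against untreated myotubes are shown because their transcripts moved. Each window holds the 250 bases before a transcription start in RefSeq (GRCm38.p6), on the plus strand. Bcl2l11 has a pair of starts, with windows at chr2:128125788-128126037 and chr2:128127325-128127574. The Mcl1 window is chr3:95658471-95658720 and the Bok window is chr1:93685325-93685574. Capitals mark a match to 1 of the motifs searched.
Bcl2l11, first start: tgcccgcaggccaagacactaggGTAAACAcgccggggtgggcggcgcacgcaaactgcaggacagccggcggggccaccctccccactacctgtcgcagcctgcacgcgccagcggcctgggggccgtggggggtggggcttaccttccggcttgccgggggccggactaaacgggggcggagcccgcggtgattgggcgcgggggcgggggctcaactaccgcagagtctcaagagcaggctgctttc
Bcl2l11, second start: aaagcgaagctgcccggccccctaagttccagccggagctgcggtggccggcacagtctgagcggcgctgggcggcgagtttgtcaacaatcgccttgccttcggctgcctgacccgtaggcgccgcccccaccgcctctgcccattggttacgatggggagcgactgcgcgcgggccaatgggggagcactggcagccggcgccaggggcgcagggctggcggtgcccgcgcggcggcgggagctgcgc
Mcl1: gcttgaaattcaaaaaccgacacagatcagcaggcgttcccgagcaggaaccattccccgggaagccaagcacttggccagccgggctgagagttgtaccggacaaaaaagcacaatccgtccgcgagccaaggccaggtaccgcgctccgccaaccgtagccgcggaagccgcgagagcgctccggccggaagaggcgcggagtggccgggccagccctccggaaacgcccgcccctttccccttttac
Bok: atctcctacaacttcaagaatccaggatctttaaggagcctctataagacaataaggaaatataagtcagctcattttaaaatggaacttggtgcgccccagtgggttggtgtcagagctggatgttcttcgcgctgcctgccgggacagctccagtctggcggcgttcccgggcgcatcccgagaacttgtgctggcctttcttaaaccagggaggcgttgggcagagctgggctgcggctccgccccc
The capitals in the first Bcl2l11 window spell the reverse strand of TGTTTAC, a core sequence that FOXO factors bind, and begin 227 bases before the start. FOXO factors are known regulators of Bcl2l11. This motif occurred in 3.17% of all 32851 windows of that length, on either strand, and in 1 of the 14 windows of the 10 members. The core of the antioxidant response element, TGACNNNGC, was in 10.2% of all windows and in 1 of the 14, that of Bcl2l1. The AP-1 motif TGANTCA (6.75% of all windows), the ATF4-CHOP motif TGATGNAAT (0.816%), the CRE motif TGACGTCA (1.55%) and the p53 response element (0.0639%) were in 0 of the 14. A match describes the letters in these windows only.

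Arrays numbered 1 differed from those numbered 2 to 4 for several members. The 4 arrays titled replicate 1 did not overlap with the 15 others for 5 of the 22 tested member probe sets, against 9.94% of all tested probe sets. Bak1 1418991_at lay at 383.3 to 502.2 on these arrays and at 734.9 to 929.2 on the 15. Bcl2l2 1423572_at lay at 547.3 to 578.2 against 608.1 to 743.1. The 3 Mcl1 probe sets with the suffix x were higher on arrays numbered 1, and 1456381_x_at lay at 1022.4 to 1481.6 against 644.9 to 919.1. The mean log2 difference of arrays numbered 1 from the 15 was -0.89 for Bak1 1418991_at and -0.24 for Bcl2l2 1423572_at. The unnumbered 10 µM array gave 569.8 for Bak1 1418991_at, between the ranges.

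**Figure D4:**
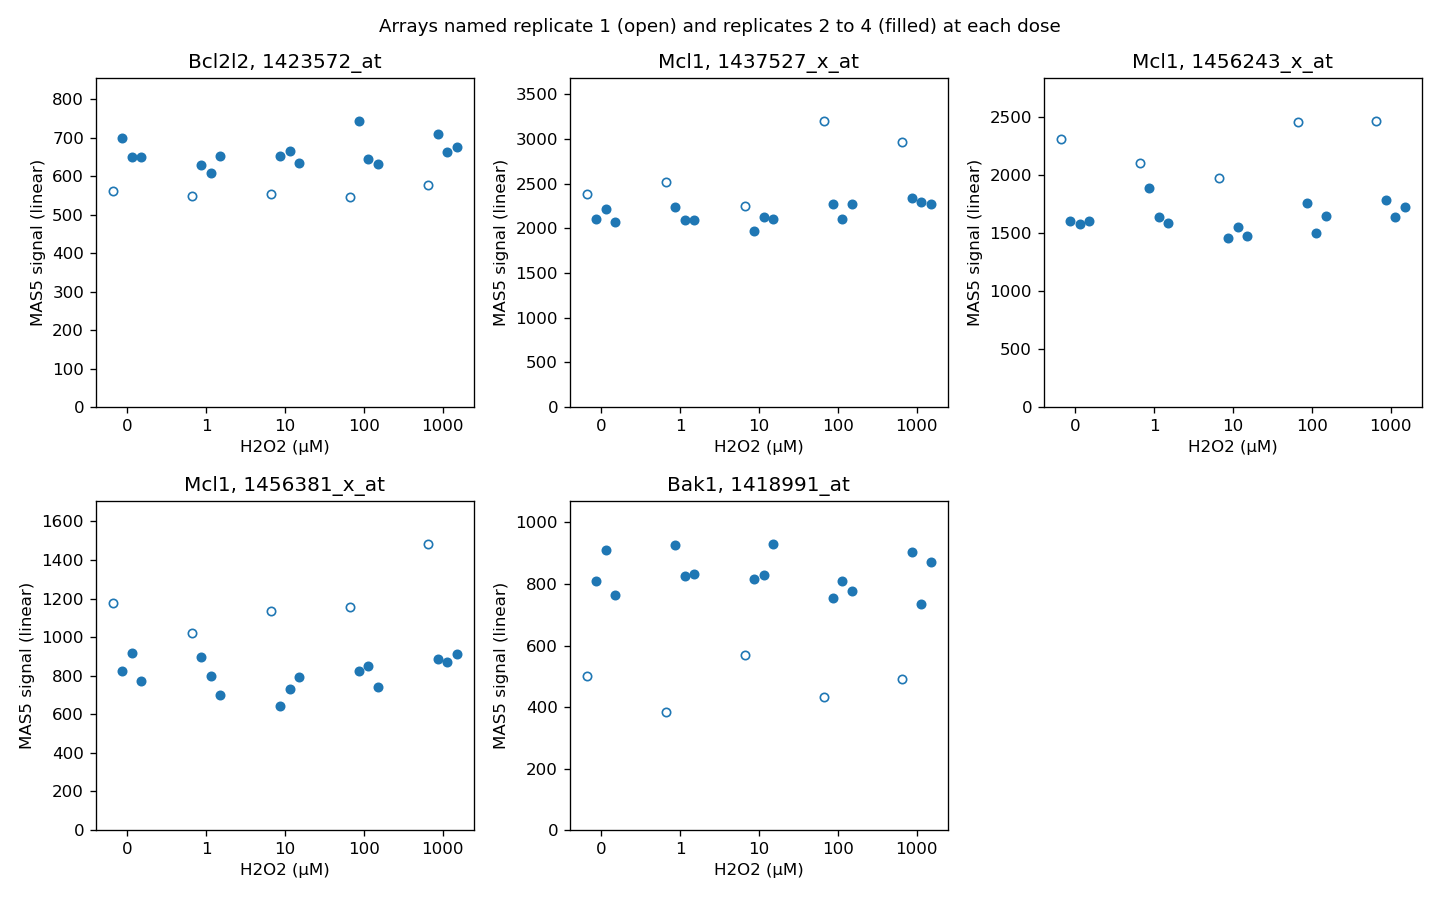
Deposited signal on each of the 20 arrays for the 5 member probe sets whose arrays titled replicate 1 do not overlap with arrays numbered 2 to 4, by H2O2 dose in µM; open points are arrays named replicate 1, among them the unnumbered 10 µM array. Bak1 1418991_at and Bcl2l2 1423572_at are lower, and 3 Mcl1 probe sets higher, on arrays numbered 1.

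For the members called against untreated myotubes, the genes whose log2 signal followed the member's brightest probe set most closely over the 15 arrays numbered 2 to 4 were listed by Pearson r, as a description. These arrays share doses, scaling and platform. For Bcl2l11 1435448_at they were Oaz2 (r = 0.894), Epha2 (r = 0.893) and Plpbp (r = 0.885). For Mcl1 1448503_at, which was itself not called, they were Nptn (r = 0.847), Fbl (r = 0.845) and Ccni (r = 0.837). For Bok they were Micos13 (r = 0.911), Ndufv2 (r = 0.901) and Bub3 (r = 0.888).

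Genes around the family were counted by lists, each gene by its brightest probe set. For each list the background is all tested probe sets, of which 1.22% were called at 100 µM and 10.9% at 1000 µM. Their medians were -0.03 and -0.07. Of 16 other BCL2 relatives and BH3-only genes, 6 were measured. At 100 µM 1 rose, and at 1000 µM 2 rose and 1 fell, with medians of 0.06 at both doses beside -0.03 and -0.07 over all. The gene that rose at both was Bbc3, which encodes the BH3-only protein PUMA, a p53 target. Bbc3 gave 194.8, 223.8, 217.4 and 288.9 untreated, 575.4, 525.1, 420.3 and 438.2 at 100 µM, and 351.2, 378.0, 397.3 and 387.1 at 1000 µM. The 3 groups did not overlap. Its rise was 1.09 ± 0.14 at 100 µM (adjusted p = 7.15e-05) and 0.72 ± 0.14 at 1000 µM (adjusted p = 0.00184). At 1 µM Bbc3 gave 170.5, 158.3, 173.0 and 170.9, all below the untreated arrays. That difference was -0.44 ± 0.14, but its adjusted p was 0.576. At 10 µM the arrays overlapped with the untreated ones, with a difference of -0.39 ± 0.14 (adjusted p = 0.963). At 1000 µM Bnip3, a mitochondrial BH3-like gene, rose by 0.46 ± 0.12 (adjusted p = 0.0171), a call that ended without untreated replicate 2 or 1000 µM replicate 3 or 4 (adjusted p from 0.0598 to 0.0635). Bcl2l13, a mitochondrial relative, fell by 0.34 (adjusted p = 0.0344), and this ended without untreated replicate 1, 3 or 4 or 1000 µM replicate 1 or 3 (adjusted p from 0.0512 to 0.102) and under median centring (-0.13). The Bcl2l13 call also ended under quantile normalization (-0.24, adjusted p = 0.156) and within arrays 2 to 4 (-0.21, adjusted p = 0.0965).

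**Figure D5:**
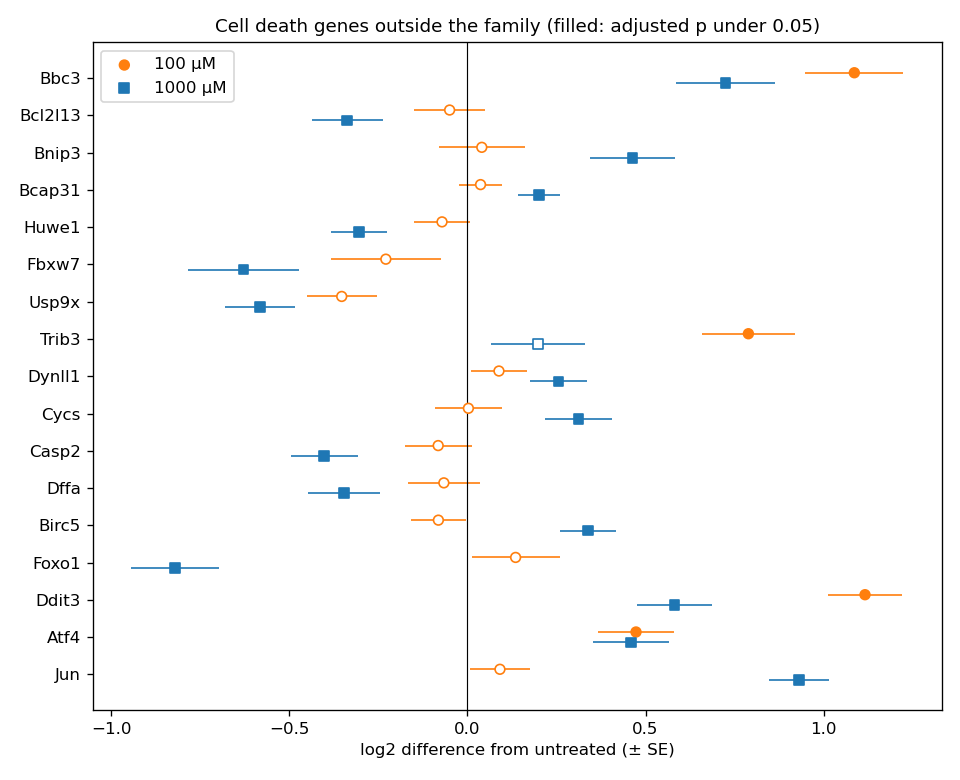
Log2 difference from untreated myotubes with its SE (n = 4 arrays a dose), at 100 µM (circles) and 1000 µM (squares) H2O2, for the brightest probe set of each listed gene called against untreated myotubes; filled symbols had an adjusted p under 0.05. Bbc3 and Ddit3 are furthest to the right at 100 µM and Jun at 1000 µM, while Usp9x, Fbxw7 and Foxo1 lie to the left at 1000 µM.

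Of 18 partners and turnover factors of BCL2 proteins, 18 were measured, with medians of 0.05 at 100 µM and 0.17 at 1000 µM. At 100 µM 1 rose, Trib3, a stress-induced pseudokinase (0.79 ± 0.13, adjusted p = 0.00204). Its other probe set, Trib3 1456225_x_at, gave 0.24 ± 0.19 there (adjusted p = 0.729) and was not called. At 1000 µM 2 rose and 3 fell, while 10.9% of all tested probe sets were called. The 3 that fell all act on the stability of the MCL1 protein: Usp9x, a deubiquitinase that stabilises it (-0.58 ± 0.10, adjusted p = 0.000621), and the ubiquitin ligases Huwe1 (-0.30 ± 0.08, adjusted p = 0.0157) and Fbxw7 (-0.63 ± 0.16, adjusted p = 0.0128). They thus include factors of opposite effect on MCL1. Usp9x 1420922_at gave 1086.7, 951.8, 809.5 and 964.8 untreated and 611.8, 667.4, 614.8 and 639.9 at 1000 µM, without overlap. Usp9x was also called lower at 100 µM by another probe set, 1428194_at (-0.37, adjusted p = 0.0304), a call that ended without 7 of the 8 arrays, all but 100 µM replicate 1 (adjusted p up to 0.104). The call for Huwe1 ended without untreated replicate 2 or 1000 µM replicate 4 (adjusted p = 0.0614 and 0.0533), and that for Fbxw7 without 1000 µM replicate 4 (0.0533). Under median centring Huwe1 differed by -0.10 (adjusted p = 0.459) and Fbxw7 by -0.43 (adjusted p = 0.0567), and neither passed. Quantile normalization also ended the Huwe1 call (adjusted p = 0.0901). A second Huwe1 probe set, 1424949_at, was not called at 1000 µM (-0.19, adjusted p = 0.509). A second Fbxw7 probe set, 1424986_s_at, was called lower there (-0.51, adjusted p = 0.00483). It stayed called without any 1 of the 8 arrays, but not under median centring (0.0921) or quantile normalization (0.0541). The 2 that rose were Bcap31, a partner at the endoplasmic reticulum (0.20 ± 0.06, adjusted p = 0.0338), and Dynll1, a dynein light chain that binds BIM (0.26 ± 0.08, adjusted p = 0.0427). Under quantile normalization Bcap31 differed by 0.07 (adjusted p = 0.566) and Dynll1 by -0.03, and both calls ended without any 1 of the 8 arrays but untreated replicate 3. The other probe sets of these genes were not called at 1000 µM. They were Bcap31 1456279_a_at (0.15, adjusted p = 0.362) and Dynll1 1448682_at (0.20, adjusted p = 0.0836) and 1456125_a_at (0.21, adjusted p = 0.0746).

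Of 15 apoptosome and caspase genes, 12 were measured, with medians of -0.06 and 0.07 at 100 and 1000 µM. At 100 µM 0 were called (1.22% of all tested probe sets), and 1 had an unadjusted p under 0.05 (11.2% of all). The share called of all at 1000 µM was 10.9%. At 1000 µM Cycs, cytochrome c, rose (0.31 ± 0.09, adjusted p = 0.0372), a call lost without any 1 of the 8 arrays (adjusted p from 0.0515 to 0.0894). Cycs 1422483_a_at (0.20, adjusted p = 0.064) and 1422484_at (0.16, adjusted p = 0.425) were not called at that dose. Casp2, an initiator caspase, fell (-0.40 ± 0.09, adjusted p = 0.00906), as did Dffa, the inhibitor of the caspase-activated nuclease (-0.35 ± 0.10, adjusted p = 0.0321). The Dffa call ended without replicate 1 or 3 of the untreated or 1 or 2 of the 1000 µM arrays (adjusted p from 0.0509 to 0.108). Under median centring, which moved the median of all tested probe sets at 1000 µM by 0.20, neither passed (-0.20 for Casp2 and -0.14 for Dffa). Quantile normalization ended both calls too, with -0.29 for Casp2 (adjusted p = 0.107) and -0.20 for Dffa (adjusted p = 0.266). The Dffa call also ended within arrays 2 to 4 (adjusted p = 0.138). Of 5 caspase inhibitors, 4 were measured, with medians of -0.13 and -0.12. At 1000 µM 1 of them rose, Birc5, survivin (0.34 ± 0.08, adjusted p = 0.00824), a gene of dividing cells. Of 9 death receptor genes, 8 were measured and limma called 0 at either dose, with medians of 0.14 and 0.09. At an unadjusted p under 0.05 there were 2 and 1 at 100 and 1000 µM, beside 11.2% and 26.2% of all tested probe sets.

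Of 15 transcriptional regulators of family genes, 12 were measured, with medians of 0.11 at 100 µM and -0.03 at 1000 µM. By the brightest probe set 2 rose at 100 µM (1.22% called of all tested probe sets), and 3 rose and 1 fell at 1000 µM (10.9% of all). Ddit3, which encodes the stress factor CHOP, a regulator of Bcl2 and Bcl2l11, rose by 1.12 ± 0.10 at 100 µM (adjusted p = 1.72e-06) and by 0.58 ± 0.10 at 1000 µM. Atf4, which acts upstream of Ddit3, rose by 0.47 ± 0.11 at 100 µM (adjusted p = 0.025) and 0.46 ± 0.11 at 1000 µM (adjusted p = 0.00851, and 0.0686 under quantile normalization). Its call at 100 µM ended without replicate 1, 2 or 3 of that dose (adjusted p from 0.058 to 0.0864). Another Atf4 probe set, 1438992_x_at, was not called at 100 µM (0.13, adjusted p = 0.875) or 1000 µM (0.43, adjusted p = 0.163). Jun, a part of AP-1, gave 1536.4, 1844.1, 1991.7 and 1948.9 untreated and 3027.7, 3767.4, 3623.2 and 3514.6 at 1000 µM. It rose there by 0.93 ± 0.08 (adjusted p = 5.12e-07), and its difference at 100 µM was 0.09. Foxo1, a forkhead factor, was called higher at 100 µM and lower at 1000 µM, by different probe sets. All 3 of its tested probe sets lay above 0 at 100 µM and below 0 at 1000 µM. Foxo1 1416981_at rose at 100 µM (0.66 ± 0.14, adjusted p = 0.0164), a call that ended without untreated replicate 3 or 100 µM replicate 1 or 2 (adjusted p from 0.0507 to 0.0726), and its difference at 1000 µM was -0.21. Its brightest probe set, 1416982_at, gave 0.14 at 100 µM and fell at 1000 µM (-0.82 ± 0.12, adjusted p = 0.0002). Foxo1 1416983_s_at gave 0.29 at 100 µM and fell at 1000 µM (-0.36 ± 0.11, adjusted p = 0.0434), a call that ended without 6 of the 8 arrays. From 100 to 1000 µM each of these probe sets fell: 1416981_at by -0.87 (adjusted p = 0.000788), 1416982_at by -0.96 (9.21e-05) and 1416983_s_at by -0.64 (0.00157). At 1 and 10 µM 0 genes of the 6 lists were called, beside 0% and 0.00695% of all tested probe sets. At an unadjusted p under 0.05 the other BCL2 relatives held 2 and 3 of 6 at these doses. Partners and turnover factors held 1 and 1 of 18, death receptor genes 2 and 1 of 8, and regulators 1 and 1 of 12. Caspase inhibitors held 1 and 0 of 4, and apoptosome and caspase genes 0 and 0 of 12. Of all tested probe sets 6.68% and 4.99% had such a p.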

How the data were processed

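C2C12 myotube RNA from 20 samples, 4 per H2O2 dose grouped by title, was measured on Affymetrix Mouse Genome 430A arrays. The deposited intensity values are linear signals made with Affymetrix Microarray Suite 5.0, per the series' design text and the submitters' processing notes. Their 2% trimmed means were 500.1 to 500.2. Here, signals were rescaled to 1 trimmed mean, floored at 1 and logged. After 64 controls were dropped, 14379 probe sets passed the filter and 8247 did not. limma 3.58.1 in R 4.3.3 fitted the 5 doses together (eBayes, variance trend by intensity; residual degrees of freedom 15, prior 5.33), with Benjamini-Hochberg adjustment over all tested probe sets in each comparison; its p-values are two-sided. The fit was also run on simulated data with independent noise on each array. That simulation held no shift for the arrays that stood apart, so it cannot show how they affect the calls. Arrays have no read depth, and 4 per dose limit the precision.

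Symbols came from the platform annotation, checked against RefSeq GRCm38.p6; 20393 probe sets had 1 symbol, 691 several and 1606 none. Each list gene stands by the probe set whose mean signal is highest. Named were every member probe set, every list gene with a called probe set against untreated myotubes, and the 3 genes most like each member called against untreated myotubes, by its brightest probe set. The members, lists and rules were chosen with earlier results of these data known. Array correlations ran from 0.9335 to 0.9902, with 0 identical pairs.

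Replicate numbers are from the titles. Deviations of same-numbered arrays from their group means correlated in every pair for 1 against 0 µM (0.105 to 0.463), 100 against 0 µM (0.115 to 0.494), 1000 against 0 µM (0.185 to 0.513) and 1000 against 100 µM (0.12 to 0.507). For 10 against 0 µM they were 0.0531 to 0.112 in 3 pairs. Pairs with different numbers ran from -0.388 to 0.325. Same-numbered pairs had medians of 0.50, 0.12, 0.19 and 0.12 for numbers 1, 2, 3 and 4. Because the arrays numbered 1 stood apart, arrays 2 to 4 can correlate whatever their number. These values therefore cannot show that the numbers pair the samples. The main fit used dose only, and the replicate block was an alternative. One 10 µM title has no number. That array carries the name replicate 1 in the text, and the fit with the replicate block omits it. Detection calls were not used here. Alternatives were quantile normalization, median centring, a pseudocount of 32, other filters, no intensity trend, the replicate block, arrays 2 to 4 alone, a term for the arrays that stood apart, the 2 doses alone, leaving out each array, and the submitters' crossed rule (every treated against every control array, mean fold over 1.75), applied to the signals.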

Additional observations from a re-analysis of the deposited data

Results flagged for a closer look

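In 8 of 110 groups of 4 arrays (22 tested member probe sets at 5 doses; 7.27%, where chance gives about 1 in 20), the highest or lowest array lay far from the other 3, with a gap to the nearest array, divided by the group's whole range, above Dixon's 95% critical value. The untreated replicate 1 gave 788.9 for Bcl2l1 1420888_at, against 511.8 to 541.9 (gap ratio 0.868), and 2314.2 for Mcl1 1456243_x_at, against 1582.1 to 1605.7 (0.961). The untreated replicate 4 gave 91.6 for Bcl2l1 1426191_a_at, against 103.9 to 105.3 (0.904). At 1 µM, replicate 1 gave 1649.9 for Mcl1 1416880_at, against 1786.8 to 1809.2 (0.865), and 383.3 for Bak1 1418991_at, against 826.8 to 927.5 (0.87). At 100 µM, replicate 1 gave 432.4 for Bak1 1418991_at, against 754.6 to 808.2 (0.89). At 1000 µM, replicate 1 gave 2967.1 for Mcl1 1437527_x_at, against 2268.5 to 2341.4 (0.882), and 1481.6 for Mcl1 1456381_x_at, against 872.1 to 911.7 (0.916). All but the untreated replicate 4 are arrays numbered 1.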

How the results depend on the processing

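Over up to 18 alternatives to each member's difference, 1920 of 1965 results kept their side of the threshold, 28 lost the call and 17 gained one. Most of the 1965 start from a difference that was not called. Of 18 alternatives to each call, it was lost in 6 for Bcl2l11 1435448_at at 100 µM and 1 for Mcl1 1416881_at at 1000 µM. It was lost in 11 for Bok at 1000 µM and in 10 for Bid 1448560_at from 100 to 1000 µM. In all, 173 results changed sign, 0 of them called in either fit. At 1 µM all-probe-set calls (0) became 107 with arrays 2 to 4 alone, 16 with a term for the arrays apart, 9 by the crossed rule and 0 to 1 without 1 array. At 10 µM (1) they became 0 with median centring or the 2 doses alone, 2 with the replicate block or the array term, 4 with arrays 2 to 4, 13 crossed and 0 to 1 without 1 array. At 100 µM the member rise (1) became 0 with arrays 2 to 4, the 2 doses alone or the crossed rule, and 0 to 1 without 1 array; all calls (175) became 402 with the replicate block, 358 with arrays 2 to 4, 570 with the array term, 98 with the 2 doses, 79 crossed and 116 to 172 without 1 array (116 without 100 µM replicate 2). At 1000 µM the member rises (2) became 7 with median centring, 3 with quantiles, the replicate block or the array term, 1 without the filter or the trend, 0 crossed and 0 to 1 without 1 array; member falls (0) became 1 with the replicate block, arrays 2 to 4 or the array term; all calls (1574) became 771 by quantiles, 2435 by median centring, 2854 with the replicate block, 2528 with arrays 2 to 4, 3282 with the array term, 262 crossed and 990 to 1358 without 1 array. From 100 to 1000 µM member rises (0) became 1 with median centring or the array term; member falls (1) became 0 with quantiles, median centring, no filter or the crossed rule, 2 with the replicate block, arrays 2 to 4 or the array term, and 0 to 1 without 1 array (adjusted p of Bid 1448560_at 0.0401 to 0.123); all calls (625) became 368, 400, 1390, 1302, 1658 and 166 under quantiles, median centring, the replicate block, arrays 2 to 4, the array term and the crossed rule, and 361 to 524 without 1 array. The F-test (1 member, with 8.01% of all called) gave 5 with median centring (6.78% of all) or the array term (20.9% of all). It gave 4 with the replicate block (15.8% of all) or arrays 2 to 4 (20.3% of all), and 1 to 2 without 1 array. Bok at 1000 µM had an adjusted p of 0.0551 within arrays 2 to 4. Dynll1 at 1000 µM went from 0.256 to -0.0336 under quantiles. Median centring moved the median of all by 0.20 at 1000 µM and 0.12 between the top doses; quantiles moved it by at most 0.08. The cause of these changes was not tested. The array term, which places the unnumbered array by its values, was chosen with these values known. The block changed no other member call.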
